A study of Mus musculus with 6 samples.

Results

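Fibronectin, the tenascins and the matricellular genes are represented here by 10 genes chosen by symbol, namely Fn1, Tnc, Tnxb, Sparc, Thbs1, Thbs2, Thbs4, Vcan, Postn and Fbn1, out of 17152 genes tested. All 10 passed the filter on low reads, which asked for 5 or more reads in 2 or more libraries. RNA-sequencing libraries were made from satellite cells, which are the muscle's resident stem cells, taken fresh from uninjured hindlimb muscle of C57BL/6J mice that the methods give as 6 to 8 weeks old. There were 3 libraries from Pax7WT mice and 3 from Pax7KR mice. The Pax7KR mice carry a germline change, made with Cas9 in zygotes, that puts arginine in place of 1 acetylated lysine of PAX7 in every cell that expresses it, and the methods describe homozygous F2 animals with WT littermates as controls. No treatment was given, and how many animals went into a library was not given in the sources used here.

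Fibronectin is a secreted glycoprotein that cells assemble into fibrils through integrins, and in muscle it is part of the niche on which satellite cells rest and divide. Matricellular proteins are secreted into the same matrix, where they tune adhesion and growth factor signalling more than they bear load. Tenascin-C, the thrombospondins, SPARC and periostin belong to this class. Tenascin-X and fibrillin-1 are more structural, organising collagen fibrils and microfibrils, and versican is a large proteoglycan that binds hyaluronan and hydrates the matrix around cells.

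The libraries held between 17822367 and 27908054 estimated reads. Pax7, the mutated gene, was read at 1551 ± 101 CPM (read counts scaled to the normalised library size; SD, n = 3) in Pax7WT and 1502 ± 119 CPM (SD, n = 3) in Pax7KR satellite cells, and reads per gene do not show the amino acid change itself. All 9 satellite cell markers were detected in every library, with a summed level of 7381 to 8003 CPM in Pax7WT and 7749 to 8014 CPM in Pax7KR. Genes used as markers of cells that the sort should remove were also read. Their sums do not show which cells the reads came from. The summed level of 10 immune markers was 9.22 to 12.3 CPM in Pax7WT and 9.13 to 13.2 CPM in Pax7KR, with Cd3e at 0 throughout. The fibro-adipogenic list summed to 1995 to 2118 CPM in Pax7WT and 1996 to 2110 CPM in Pax7KR, nearly all of it Col3a1 and Dpt. This sum therefore says little about the other genes of the list. Dcn was read at 24.7, 26.1 and 32.8 CPM in Pax7WT and at 39.8, 45.3 and 26.5 CPM in Pax7KR. Col1a2 was read at 19.3, 19.1 and 35.3 CPM in Pax7WT and at 30.0, 26.3 and 18.3 CPM in Pax7KR. By fit 5 of the 11 genes were higher in Pax7KR, with 0 past an unadjusted p of 0.05 in edgeR. The defining gene Pdgfra lay between 1.51 and 3.81 CPM. The 10 smooth muscle and pericyte markers summed to 2698, 2918 and 2551 CPM in Pax7WT and to 2613, 2606 and 2376 CPM in Pax7KR. All 10 had a lower fitted level in Pax7KR, 0 of them past an unadjusted p of 0.05 in edgeR. The sums of the genotypes overlapped, and Notch3 made up most of each. It was read at 2346, 2475 and 2113 CPM in Pax7WT and at 2218, 2194 and 2052 CPM in Pax7KR. Acta2, the next highest, was read at 120.4, 138.9 and 147.8 CPM in Pax7WT and at 134.4, 128.7 and 121.5 CPM in Pax7KR. Myh11 was read at 19.5, 45.5 and 45.3 CPM in Pax7WT and at 32.8, 35.9 and 17.9 CPM in Pax7KR. Schwann cell markers summed to 83.8 to 129.1 CPM and myofibre markers to 37.7 to 53.3 CPM over the 6 libraries. The 11 genes of the dissociation response, which rise while cells are released from tissue, summed to 40658, 26361 and 43056 CPM in Pax7WT and to 32906, 36923 and 34082 CPM in Pax7KR, so that Pax7WT replicate 2 was the lowest library and Pax7WT replicate 3 the highest. The part of these lists in the results was not tested. In sorted bulk RNA, fewer cells of a type and less RNA per cell cannot be told apart.

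Per length of transcript, the 10 genes spanned a wide range of levels. The TPM values deposited by the authors, which correct reads for transcript length and library size, were added up for each gene. Sparc, whose product binds collagen and calcium, was highest at a mean of 537.6 TPM over 6 libraries, with a range of 511.1 to 578.1. Thbs2 followed at 127.2 TPM (105.8 to 150.3), then Fbn1 at 62.6 TPM (58.4 to 68.4) and Tnxb at 33.4 TPM (25.5 to 38.7). These 4 ranges did not overlap with one another or with any lower gene. Thbs4 at 10.9 TPM (7.40 to 15.9) and Fn1 at 10.8 TPM (6.36 to 16.1) overlapped almost fully. Thbs1 (3.66 TPM), Postn (2.75 TPM), Vcan (1.93 TPM) and Tnc (0.656 TPM) made up the lower end, and among these 4 each range overlapped with that of its neighbour in this order, while all Thbs1 values were below those of Fn1. Among the secreted matrix genes described here, satellite cells thus held far more Sparc, Thbs2 and Fbn1 transcript than Fn1 transcript, in all libraries of both genotypes.

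**Figure D1:**
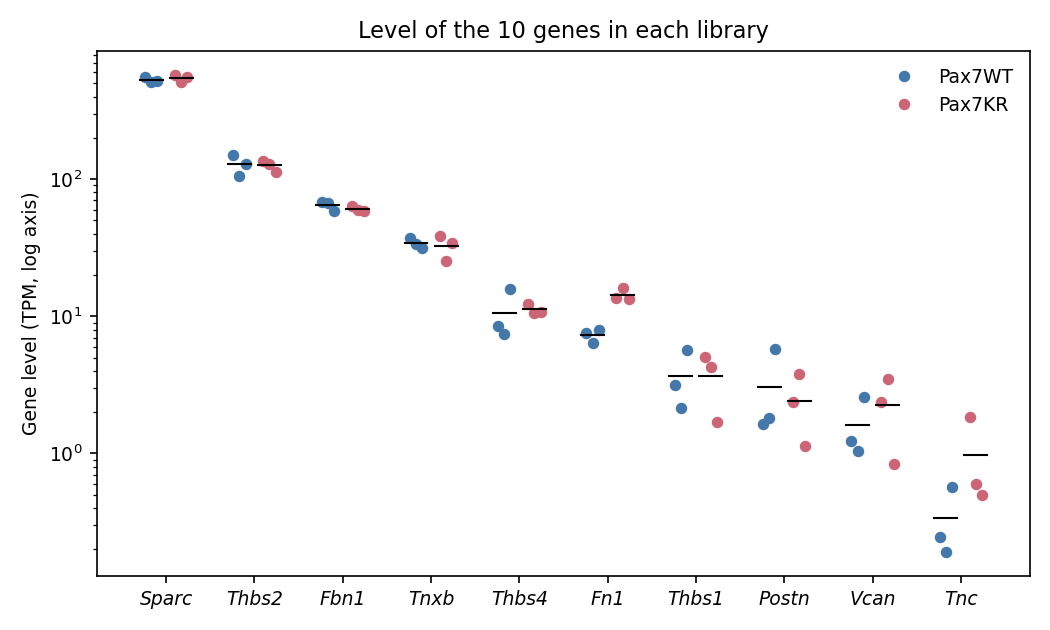
Level of each gene in TPM on a log axis, with 1 point per library, blue for Pax7WT and red for Pax7KR, and a black bar at the mean of the 3 libraries. Sparc sits at 511.1 to 578.1 TPM and Tnc at 0.192 to 1.83 TPM, and only for Fn1 do all red points lie above all blue points.

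The comparison of Pax7KR with Pax7WT satellite cells asks which of these genes changed when the lysine of PAX7 could no longer be acetylated. Fn1 was the gene of the 10 that stood apart, at 1.52-fold higher in Pax7KR, and Tnc was the other with a large fitted difference, at 2.78-fold higher. The remaining 8 had fitted differences between 0.814-fold and 1.02-fold. In edgeR's quasi-likelihood test with Benjamini-Hochberg adjustment, 0 of the 10 genes had an adjusted p under 0.1, and neither did any other gene (0 of 17152, 0.0%). At an unadjusted p under 0.05 there was 1 of the 10, Fn1, beside 803 of all genes tested (4.68%). The 3 Pax7KR values lay on 1 side of the 3 Pax7WT values for 1 of the 10, again Fn1, beside 10.3% of all genes. With 10 genes, 1 gene is the smallest count above 0, so neither share differs readably from its background. In this fit 3 genes were higher and 7 lower in Pax7KR, with a median log2 fold change of −0.06 against −0.004 over all genes, and the number higher went from 2 to 6 when single libraries were left out. DESeq2, the tool that the study used, called 1 of the 10, Fn1, beside 30 of all genes (0.175%). Fn1 and Tnc are among the genes that the study displayed as differing in these same libraries, so their direction here is not independent evidence.

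**Figure D2:**
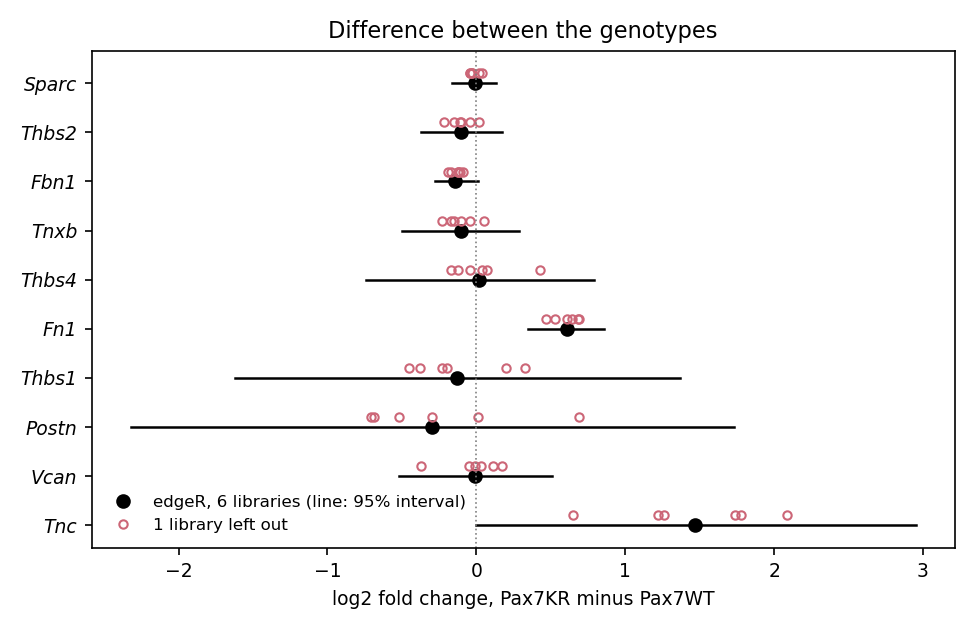
Log2 fold change of Pax7KR over Pax7WT from edgeR for each gene, with its 95% interval as a line and the 6 values with 1 library left out as open circles. The interval of Fn1 runs from 0.35 to 0.86, and the other 9 intervals hold 0.

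Fn1 (ENSMUSG00000026193, chromosome 1, 71585520 to 71653200, minus strand of GRCm38) encodes fibronectin. It was read at 33.1, 29.5 and 36.4 CPM in the 3 Pax7WT libraries and at 47.6, 59.2 and 44.0 CPM in the 3 Pax7KR libraries. Every Pax7KR library was above every Pax7WT library, and the gap between the groups was 36.4 to 44.0 CPM. The log2 fold change was 0.61 (SE 0.12, 95% interval 0.35 to 0.86), with an unadjusted p of 0.00027 and an adjusted p of 0.445 from edgeR. It ranged from 0.47 without Pax7KR replicate 2 to 0.69 without Pax7KR replicate 3. In the last of these fits its adjusted p from edgeR was 0.0737, with 32 genes called in all (0.189%). Most endothelial markers had a higher fitted level in Pax7KR, as Fn1 did, but the libraries did not fall in the same order. Of 12 such genes 11 were higher in Pax7KR, with 0 past an unadjusted p of 0.05, and none was at 0 in any library. Their summed level was 361.1, 348.9 and 428.9 CPM in Pax7WT and 449.4, 525.3 and 379.5 CPM in Pax7KR, so that Pax7WT replicate 3 and Pax7KR replicate 2 were the highest of their genotype for both the marker list and Fn1. Tek made up much of this sum, and without it, a choice made after seeing the data, the other 11 markers summed to 130.1, 165.3 and 222.0 CPM in Pax7WT and to 228.5, 304.0 and 163.3 CPM in Pax7KR. Pax7KR replicate 3 thus held fewer endothelial reads of these 11 genes than Pax7WT replicate 3 and more Fn1. The part of endothelial RNA in the Fn1 difference was not tested.

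On the TPM scale the Fn1 difference was larger, and most of what exceeded the read-count difference lay on 1 short transcript. Coding Fn1 transcripts were also higher, at 6.61 ± 0.692 TPM in Pax7WT and 10.4 ± 1.64 TPM in Pax7KR (SD, n = 3 each). Fn1 summed to 7.62, 6.36 and 7.94 TPM in Pax7WT and to 13.5, 16.1 and 13.4 TPM in Pax7KR, a ratio of means of 1.96. A transcript of 495 bases, annotated as a retained intron and named Fn1-204, was listed at 0 reads in each Pax7WT library. In the Pax7KR libraries it had 10.5, 11.4 and 16.1 estimated reads. Divided by its short length, these reads came to 2.39, 2.47 and 3.78 TPM, or 17.7%, 15.3% and 28.2% of all Fn1 TPM. The transcript joins 3 exons, of 305, 107 and 83 bases. Of the first, 179 bases lie in the intron upstream of a coding exon of 126 bases. That sequence and the first 60 bases of the coding exon are shown because the intron piece is what sets Fn1-204 apart from the coding transcripts at this exon, with the intron in capitals (GENCODE M21 transcript sequence, minus strand of GRCm38, chr1:71590833-71591071).
Fn1-204: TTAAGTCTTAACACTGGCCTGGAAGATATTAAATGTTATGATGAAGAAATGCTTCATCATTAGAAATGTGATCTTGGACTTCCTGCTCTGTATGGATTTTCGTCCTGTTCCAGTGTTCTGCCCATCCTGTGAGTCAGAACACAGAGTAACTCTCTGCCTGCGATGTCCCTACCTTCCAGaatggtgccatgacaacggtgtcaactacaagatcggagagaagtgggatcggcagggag
The deposited estimates do not show on which of its bases the reads fell. With transcripts under 1000 bases left out, a choice made after seeing the data, the Fn1 means were 7.16 ± 0.951 TPM and 11.1 ± 1.99 TPM (SD, n = 3 each), a ratio of 1.56, close to the 1.52-fold of the read counts. The same step bears on the fits that correct for transcript length. When the mean length of each gene's transcripts entered DESeq2 as an offset, the way tximport hands it on, the log2 fold change of Fn1 was 0.91 (adjusted p = 6.54e-08 from DESeq2, with 45 genes called in all, 0.262%). With the short transcripts left out it was 0.57 (adjusted p = 0.0754 from DESeq2, again 45 genes called, 0.262%). The same offset in edgeR gave 0.91 with an adjusted p of 0.196 and, without the short transcripts, 0.57 with an adjusted p of 0.764.

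**Figure D3:**
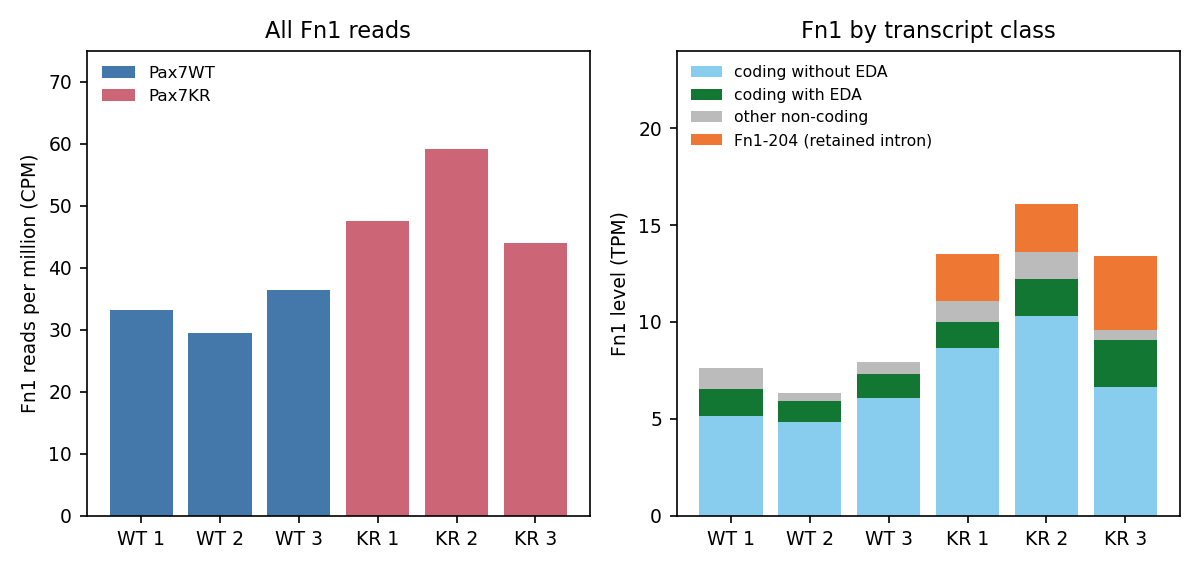
Left, Fn1 CPM in each library. Right, Fn1 TPM stacked by transcript class, with coding transcripts split by the EDA exon, in which the orange block of Fn1-204 is 0 in Pax7WT and 2.39 to 3.78 TPM in Pax7KR while the coding classes together reach 5.94 to 7.32 TPM in Pax7WT and 9.05 to 12.2 TPM in Pax7KR.

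Fibronectin transcripts differ, among other places, by the exons EDA and EDB, each of which codes for 1 extra type III module. Plasma fibronectin from the liver lacks both, while cells in embryos and in healing tissue include them. The EDA exon of 270 bases is shown as the stretch that separates Fn1 transcripts with EDA from those without it (GENCODE, minus strand of GRCm38, chr1:71603660-71603929, coding).
EDA: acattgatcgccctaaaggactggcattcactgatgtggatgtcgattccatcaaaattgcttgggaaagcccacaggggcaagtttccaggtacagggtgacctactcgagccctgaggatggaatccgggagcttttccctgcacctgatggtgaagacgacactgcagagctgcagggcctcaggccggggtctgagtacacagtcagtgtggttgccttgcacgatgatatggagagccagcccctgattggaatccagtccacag
Transcripts with EDA made up 21.8%, 19.0% and 17.1% of the Fn1 coding TPM in Pax7WT and 13.6%, 15.6% and 26.6% in Pax7KR. The means were 19.3% ± 2.37 and 18.6% ± 7.02 (SD, n = 3 each). The groups overlapped, with both the lowest and the highest value in Pax7KR, and an exact permutation test, two-sided, gave p = 0.9, where 3 against 3 libraries cannot go below 0.1. The EDB exon of 273 bases lies further upstream, from 71613763 to 71614035 on chromosome 1. It was included in 4.51%, 1.72% and 0% of the coding TPM in Pax7WT and in 3.46%, 4.65% and 1.19% in Pax7KR (exact permutation p = 0.6). Most Fn1 transcript in these satellite cells was therefore assigned to forms that skip EDA and EDB, in both genotypes. These forms are 3 annotated transcripts of 7797, 7694 and 7410 bases, and the differences among them were not examined. These shares rest on 523 to 1413 Fn1 reads per library, of which only those touching the exon or its junctions inform the split.

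Tnc was the lowest of the 10 genes by TPM and Tnxb the 4th highest. Tnc (ENSMUSG00000028364, chromosome 4, 63959785 to 64047015, minus strand), whose product is scarce in resting muscle and appears in regenerating niche and tendon, had 28, 15 and 51 reads in Pax7WT and 173, 58 and 45 reads in Pax7KR. That is 1.03, 0.847 and 2.49 CPM against 7.57, 2.43 and 2.13 CPM. Pax7KR replicate 1 stood apart, and the other Pax7KR libraries were both below the highest Pax7WT library. In edgeR the difference came to 1.47 on the log2 scale (SE 0.63, 95% interval −0.00438 to 2.95, adjusted p = 0.992). It was 0.65 (SE 0.48) without Pax7KR replicate 1 and 2.09 without Pax7WT replicate 3. Estimated Tnc reads fell on a transcript with the annotated type III exon of 273 bases in 1 library, Pax7KR replicate 1, where it took 31.1% of the coding TPM. It was listed at 0 in the other 5.
Tnxb (ENSMUSG00000033327, chromosome 17, 34670535 to 34719815, plus strand), for the collagen-binding tenascin-X, was read at 199.5, 183.5 and 167.3 CPM in Pax7WT and at 199.0, 132.3 and 180.8 CPM in Pax7KR. The groups overlapped, and Pax7KR replicate 2 was the lowest of the 6. With all libraries edgeR gave a log2 fold change of −0.10 (SE 0.16, 95% interval −0.50 to 0.29, adjusted p = 0.998), and without that library 0.05. Nearly all of its reads fell on a coding transcript of 9381 bases. A longer one with 8 further exons took 33.8 reads in Pax7WT replicate 1 and 26.3 reads in Pax7WT replicate 3, and was listed at 0 in the other libraries. Tnxb was the 1 gene of the 10 whose reads were not whole numbers within 0.01 reads, and whether the rest of a read lies on another gene or on a transcript that was not matched was not tested. The other 9 gave whole sums in every library.

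Because PAX7 reads DNA through a homeobox domain and a paired domain, the promoters of the genes were searched for short forms of both motifs. Promoters were taken from RefSeq (GRCm38.p6) as the 300 bases from 250 before to 50 after the start, and 8 of the 10 genes matched, with 10 promoters. Fn1 and Thbs1 had no entry. The homeobox core ATTA, on either strand, occurred in a promoter of 5 of the 8 genes, against 58.0% of 32851 promoters of this length. The paired form GTCACG, on either strand, occurred in 1 of the 8, Tnc, against 8.22% of all promoters, and TATAAA in 3 of the 8 against 13.6%. The downstream of 2 Tnc promoters is shown as the 1 that holds both letter strings, which are in capitals (minus strand, chr4:64046887-64047186).
Tnc: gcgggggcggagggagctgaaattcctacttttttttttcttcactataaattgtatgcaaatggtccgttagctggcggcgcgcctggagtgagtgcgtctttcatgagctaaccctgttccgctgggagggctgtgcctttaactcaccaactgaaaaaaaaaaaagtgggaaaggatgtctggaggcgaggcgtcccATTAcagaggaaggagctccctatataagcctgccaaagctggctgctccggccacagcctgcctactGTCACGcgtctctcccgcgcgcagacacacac
These are matches of letters and not measured binding. The paper searched for motifs in PAX7 ChIP-seq peaks, which can lie far from the start of a gene, as at its Myf5 enhancers. Such peaks were not used here, and sites outside the 300 bases were not searched. The counts are of genes, of which Tnc and Postn had 2 promoters each, while the background is over single promoters, and the shares were not tested against each other.

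The thrombospondins are calcium-binding matricellular proteins that act on CD47, integrins and latent TGF-beta. Thbs2 (ENSMUSG00000023885, chromosome 17, 14665500 to 14694235, minus strand), an inhibitor of angiogenesis, was the most abundant of the 3. It was read at 532.0, 379.6 and 456.9 CPM in Pax7WT and at 454.1, 430.3 and 392.1 CPM in Pax7KR. All Pax7KR values lay within the Pax7WT range, and edgeR gave a log2 fold change of −0.10 (SE 0.12, 95% interval −0.37 to 0.17, adjusted p = 0.998). Thbs1 (ENSMUSG00000040152, chromosome 2, 118111876 to 118127133, plus strand), the main activator of latent TGF-beta in this family, was read at 11.2, 7.73 and 20.2 CPM in Pax7WT and at 16.8, 13.2 and 5.86 CPM in Pax7KR. The groups overlapped over most of their range, and the difference fitted by edgeR, −0.13 on the log2 scale (SE 0.56, 95% interval −1.62 to 1.37, adjusted p = 0.998), turned to 0.33 without Pax7WT replicate 3 and to 0.20 without Pax7KR replicate 3. Thbs4 (ENSMUSG00000021702, chromosome 13, 92751590 to 92794818, minus strand), known from muscle attachments and tendon, was read at 15.9, 14.2 and 30.0 CPM in Pax7WT and at 22.0, 19.1 and 20.0 CPM in Pax7KR. The Pax7KR values were close together and lay inside the Pax7WT range. A log2 fold change of 0.02 was fitted in edgeR (SE 0.31, 95% interval −0.74 to 0.79, adjusted p = 0.998), and 0.43 without Pax7WT replicate 3.

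Postn (ENSMUSG00000027750, chromosome 3, 54361109 to 54391037, plus strand) encodes periostin, a partner of tenascin-C and collagen made mainly by fibroblasts. It had 53, 63 and 221 reads in Pax7WT and 101, 154 and 48 reads in Pax7KR, or 1.95, 3.56 and 10.8 CPM against 4.42, 6.45 and 2.27 CPM. Pax7WT replicate 3 was the highest of the 6 and Pax7WT replicate 1 the lowest, so the spread within Pax7WT held all Pax7KR values. For periostin the fitted log2 difference was −0.30 (SE 0.78, 95% interval −2.32 to 1.73, adjusted p = 0.998 in edgeR). It was 0.69 without Pax7WT replicate 3, 0.01 without Pax7KR replicate 3 and −0.71 without Pax7WT replicate 1. An interval this wide holds changes of several-fold in either direction, and the Pax7WT libraries alone spread from 1.95 to 10.8 CPM.
Pax7WT replicate 3 was the highest library for Postn, Thbs1 and Thbs4, and the highest Pax7WT library for Tnc. It was also the highest library for 7 of 8 tenocyte markers, whose summed level was 34.5, 28.7 and 58.0 CPM in Pax7WT and 34.8, 35.5 and 38.7 CPM in Pax7KR. Among other lists it was highest for 5 of 11 fibro-adipogenic and 4 of 10 smooth muscle and pericyte markers. It was highest for 3 of 7 Schwann, 3 of 7 myofibre, 2 of 12 endothelial, 2 of 10 immune and 1 of 9 satellite cell markers. Tnmd, a defining tendon gene, was read at 2.49 CPM in Pax7WT replicate 3 and at 0.142 to 0.831 CPM in the other libraries. Scx, the 1 marker of the list not highest in Pax7WT replicate 3, did not show this. It was read at 7.61, 6.77 and 7.60 CPM in Pax7WT and at 5.25, 4.77 and 6.76 CPM in Pax7KR. The satellite cell markers summed to 7866 CPM in Pax7WT replicate 3, inside the range of the others. The dissociation response sum was also at its highest there, at 43056 CPM. Of its 11 genes, however, 7 were highest in Pax7WT replicate 1, 3 in Pax7WT replicate 3 and 1 in Pax7KR replicate 2. The sum was at its lowest in Pax7WT replicate 2, at 26361 CPM, the Pax7WT library with the least Thbs1, Thbs4 and Tnc. The part of RNA from tendon or other cell types, or of the dissociation response, in these values was not tested. Within Pax7WT the coefficient of variation of the CPM was 86.6% for Postn, 61.8% for Tnc, 49.2% for Thbs1 and 43.4% for Thbs4. It was 16.7% for Thbs2, 10.4% for Fn1, 8.76% for Tnxb, 7.26% for Fbn1, 5.53% for Vcan and 3.59% for Sparc.

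**Figure D4:**
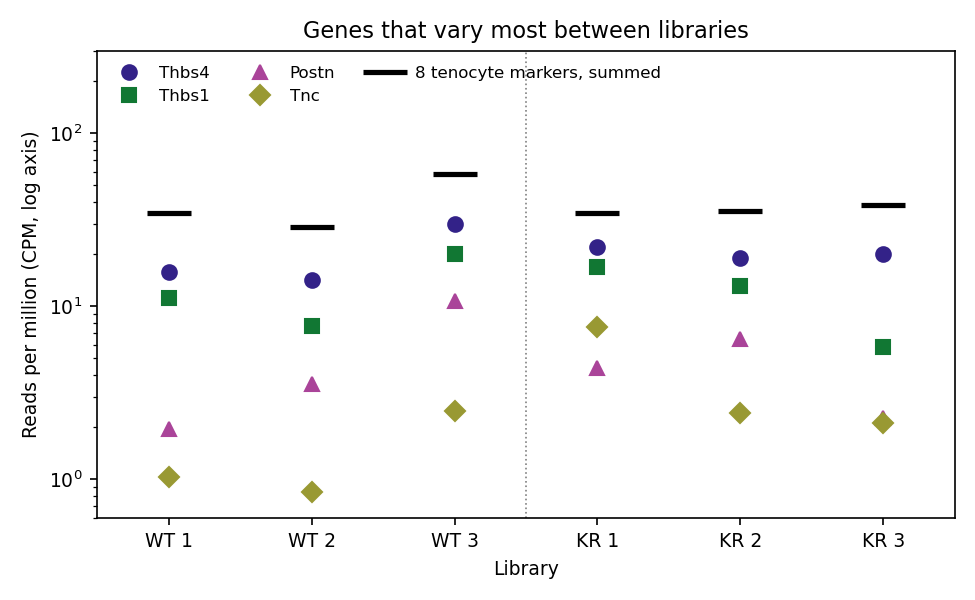
CPM on a log axis in each library for Thbs4, Thbs1, Postn and Tnc, with the summed level of 8 tenocyte markers as black bars and a dotted line between the genotypes (in KR 3 the Postn point lies behind that of Tnc). In WT 3 the tenocyte sum of 58.0 CPM, Thbs4, Thbs1 and Postn are each at their highest, while Tnc is highest in KR 1 at 7.57 CPM.

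Sparc (ENSMUSG00000018593, chromosome 11, 55394500 to 55423183, minus strand) was read at 692.1, 649.5 and 652.2 CPM in Pax7WT and at 683.1, 611.1 and 681.1 CPM in Pax7KR. The 6 libraries lay within 1.13-fold of one another. On the log2 scale the genotypes differed by −0.01 (SE 0.07), and the 95% interval of −0.16 to 0.13 lies below the interval of Fn1. Fbn1 (ENSMUSG00000027204, chromosome 2, 125300594 to 125507993, minus strand) encodes fibrillin-1, the core of the microfibrils that store latent TGF-beta and BMPs. It was read at 406.8, 393.8 and 353.2 CPM in Pax7WT and at 366.6, 338.3 and 344.8 CPM in Pax7KR. A Pax7WT library lay among the Pax7KR values. Its fitted difference of −0.14 on the log2 scale (SE 0.07, 95% interval −0.28 to 0.01, adjusted p = 0.992 in edgeR) kept its sign with each library left out, from −0.19 to −0.09.

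Vcan (ENSMUSG00000021614, chromosome 13, 89655312 to 89742509, minus strand) was read at 7.06, 6.32 and 6.63 CPM in Pax7WT and at 9.53, 5.49 and 4.87 CPM in Pax7KR. The Pax7KR libraries lay on both sides of the Pax7WT libraries, which were close together. By read counts the fitted difference was −0.01 on the log2 scale (SE 0.24, 95% interval −0.52 to 0.51, adjusted p = 0.998 in edgeR), and with the length offset it was 0.39 (SE 0.53). Short transcripts again carried that shift. In Pax7KR replicate 2, a transcript of 294 bases with 2.12 estimated reads gave 1.16 of the 3.51 TPM of Vcan, and one of 861 bases with 15.2 reads gave 1.54 TPM. That transcript of 861 bases also gave 1.61 of the 2.58 TPM in Pax7WT replicate 3. Without transcripts under 1000 bases the log2 fold change was 0.01 (SE 0.28).
Versican forms are named by 2 large exons that carry the glycosaminoglycan chains. The GAG-alpha exon, of 2880 bases, and the GAG-beta exon, of 5217 bases, are both in V0, the form V1 has only GAG-beta, V2 only GAG-alpha, and V3 neither. Of these 4 forms, V0 and V1 were read. V2 and V3 were listed at 0 reads in all 6 libraries. The GAG-beta exon was thus in 100% of the TPM that spans it, and the GAG-alpha exon in 47.9%, 31.1% and 33.7% in Pax7WT and in 26.9%, 38.2% and 26.3% in Pax7KR. These shares overlapped (exact permutation p = 0.4, two-sided; adjusted p = 0.8 over 18 exons tested in 5 genes), and V1 was the larger form by TPM in every library. The 18 exons are not separate tests. The 8 of Tnxb rest on the same pair of transcripts and share 1 result, and some others were at 100% in every library. The Postn exons of 81 and 84 bases, which set its splice forms, varied from 25.2% to 100% and from 0% to 100% of the TPM between libraries with 48 to 221 reads, and no form can be called typical at this depth.

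**Figure D5:**
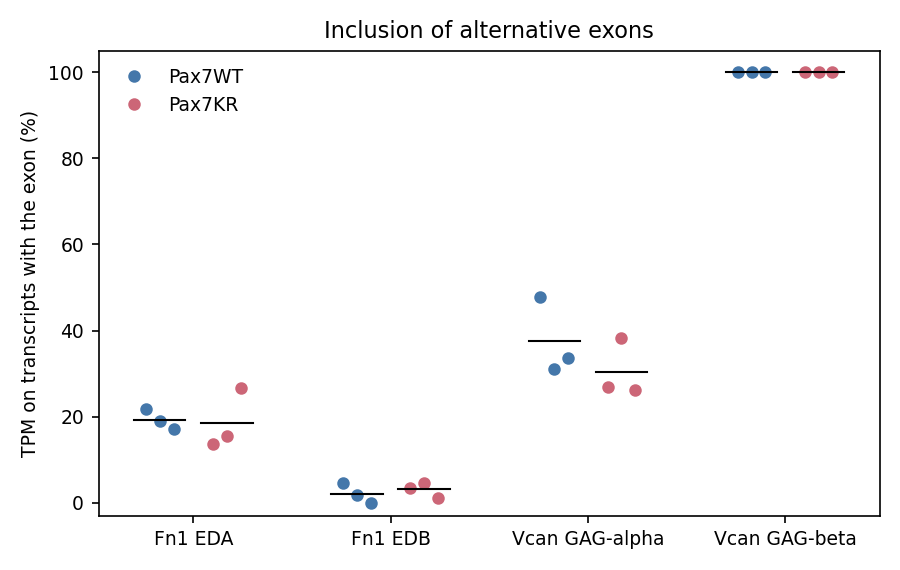
Percent of the coding TPM of Fn1 or Vcan on transcripts that include the named exon, among transcripts that span it, with 1 point per library and a black bar at the mean of the 3 libraries. EDA lies between 13.6% and 26.6%, EDB between 0% and 4.65%, GAG-alpha between 26.3% and 47.9%, and GAG-beta at 100% in all libraries.

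Genes that work with these proteins were followed in 5 lists by role, with 67 genes, of which 61 were tested. Of these, 33 were higher and 28 lower in Pax7KR, with a median log2 fold change of 0.01. None had an adjusted p under 0.1 in edgeR or in DESeq2. At an unadjusted p under 0.05 there were 4 higher and 1 lower, or 5 of 61 beside the 4.68% of all genes. Groups without overlap were found for 2 of 61 beside 10.3%. Both counts include Acan, which had 0 reads in Pax7WT and passed the filter on low reads only through Pax7KR. Admitted this way, Acan could only come out higher, so it does not count as support.
All 15 receptors were tested, 8 of them higher and 7 lower in Pax7KR (median log2 fold change 0.02), and 0 passed an unadjusted p of 0.05 in edgeR. Lrp1, an endocytic receptor that clears thrombospondins and other matrix proteins, had the highest CPM, a measure not corrected for transcript length. It was read at 1339 ± 84.0 CPM in Pax7WT and 1354 ± 23.5 CPM in Pax7KR (SD, n = 3 each). Among 16 tested matricellular relatives, 10 were higher and 6 lower. Ccn4, a WNT-induced matricellular gene, was read at 19.9, 19.2 and 15.4 CPM in Pax7WT and at 10.9, 13.4 and 16.6 CPM in Pax7KR, with overlap (log2 fold change −0.42, SE 0.16, unadjusted p = 0.0205, adjusted p = 0.992 from edgeR). The highest CPM among these relatives was that of Ccn1, an immediate early matricellular gene, at 536.2 ± 187.9 CPM and 489.5 ± 170.4 CPM (SD, n = 3 each).
Of microfibril and elastic fibre genes 16 were tested. In Pax7KR 9 of them were higher and 7 lower, and the 3 with an unadjusted p under 0.05 were all higher in Pax7KR. Ltbp1, which tethers latent TGF-beta to fibronectin and fibrillin, was read at 765.7, 711.7 and 756.1 CPM in Pax7WT and at 853.4, 804.8 and 839.1 CPM in Pax7KR, without overlap (log2 fold change 0.16, SE 0.06, adjusted p = 0.992 from edgeR). Eln, for elastin, went from 12.9 ± 3.45 to 17.6 ± 1.32 CPM and Fbln2, a fibronectin- and versican-binding fibulin, from 99.5 ± 16.0 to 125.1 ± 12.4 CPM (SD, n = 3 each), both with overlap and an adjusted p of 0.992 from edgeR. Ltbp4 had the highest CPM of this list, at 2103 ± 37.0 and 2109 ± 69.7 CPM. Among 8 tested hyaluronan partners, 4 were higher and 4 lower. Acan, for the cartilage proteoglycan aggrecan, had 0 reads in each Pax7WT library and 5, 8 and 6 reads in the Pax7KR libraries. Against a chosen floor of 3 reads over the Pax7WT group this came to 6.24-fold, with an adjusted p of 0.992 from edgeR. As Acan passed the filter only through Pax7KR, this value is a description and no support for a difference. Has3, a hyaluronan synthase, had the highest CPM of that list, at 1.93 ± 0.441 and 2.75 ± 0.779 CPM (SD, n = 3 each). Of 6 versican proteases 2 were higher and 4 lower. Adamts1 had the highest CPM of them, at 445.4 ± 88.7 and 422.4 ± 40.7 CPM (SD, n = 3 each).
Over the 6 libraries, the genes whose log2(CPM + 1) followed that of Fn1 most closely were Tctn1 (Pearson r = 0.991), Cep152 (r = 0.989) and Klhdc10 (r = 0.989), among genes with a mean of 1 CPM or more. With 6 points and all tested genes searched, values of this size are a description of these libraries only.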

How the data were processed

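RNA was extracted from sorted satellite cells (positive for integrin alpha-7 and CD34, negative for CD31, CD11b, SCA-1 and CD45), and stranded libraries were sequenced as paired reads. The authors quantified them with salmon (version 1.3.0) against GENCODE transcripts of GRCm38 and deposited estimated counts per transcript, not normalized, with TPM values and effective lengths. The authors' deposited table of their own comparison (fold changes and p-values) was not used.

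Estimated counts were summed per gene and rounded. Of 140992 transcripts 139791 were matched by identifier to GENCODE M21 on the same build. The unmatched ones held 0.592% to 0.634% of the reads. Genes that reached 5 reads in at least 2 libraries entered edgeR (version 4.0.16; TMM, quasi-likelihood, robust) with genotype as the term, with Benjamini-Hochberg adjustment over 17152 genes and a cut-off of 0.1. The common biological coefficient of variation was 13.8%. Between any 2 libraries (15 pairs), the mean chi-square of a gene was 10.2 to 23.3, so none was a copy. P-values measure the spread between 3 libraries per genotype, each described as a biological sample. Exon shares were tested with exact permutation tests (scipy version 1.17.1). The fits were tested on simulated data. DESeq2 (version 1.42.0) in R (version 4.3.3) served as an alternative, beside length offsets, RLE factors, other filters, a replicate block and leaving out each library. The genes, lists and tests were chosen with earlier results of these data known. Named from each list were up to 4 genes with the smallest unadjusted p under 0.05 and the one with the highest mean CPM. For Fn1 the 3 genes most like it were named. Leaving out transcripts under 1000 bases, and the endothelial sum without Tek, were chosen after seeing the data.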

Additional observations from a re-analysis of the deposited data

How the results depend on the processing

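Of 150 recomputed log2 fold changes of the 10 genes, 126 kept their direction and their side of the cut-off, 6 newly passed it and 18 changed sign. Fn1 and Fbn1 kept their direction in every setting, as did Tnc. Fn1 passed the cut-off in DESeq2 (0.61, adjusted p = 0.00883), in DESeq2 with the length offset with all transcripts (0.91) and without short ones (0.57), without any filter in edgeR (0.61, adjusted p = 5.52e-08) and without Pax7KR replicate 3 (0.69). Tnc passed without any filter (1.48, adjusted p = 0.00702). That setting called 157 of 24068 genes (0.652%), 2 of the 10 and 2 of the listed partners. The number of genes called was 30 in DESeq2 and 45 with its length offset, with or without the short transcripts, with 1 of the 10 called in each. It was 0 with RLE size factors, with a length offset in edgeR, with at least 10 reads in every library and at a cut-off of 0.05. Leaving out 1 library gave 1 to 32 genes called, 0 to 1 of the 10, and 2 to 6 of the 10 higher in Pax7KR. Values without overlap were 1 of the 10 by TPM and by RLE-scaled CPM too.

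With the replicate number as a block, 13 genes were called, 0 of them among the 10, and Fn1 was at 0.60 (adjusted p = 0.629 from edgeR). The labels do not say that a number marks a shared litter or day, and libraries with the same number did not deviate together (r = 0.005, 0.027 and −0.044).

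Signs changed for Vcan, to 0.39 with the length offset in edgeR and in DESeq2 and to 0.01 in both with short transcripts left out. With 1 library left out, they changed for genes whose main value was small or whose spread was wide. Vcan ran from −0.37 to 0.17, Thbs4 from −0.17 to 0.43, Thbs1 from −0.45 to 0.33, Postn from −0.71 to 0.69, Sparc from −0.04 to 0.04, Thbs2 from −0.22 to 0.02 and Tnxb from −0.23 to 0.05. Apart from the length of short transcripts, the cause was not tested. Tnc, Postn and Vcan have 15 to 221 reads per library, which limits what can be seen for them.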
